A study of Homo sapiens with 12 samples.

Results

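The genes described here are 10 transcription factor genes: JUN, JUNB and JUND of the JUN family, FOS, FOSB, FOSL1 and FOSL2 of the FOS family, the stress-response factor ATF3, the zinc-finger factor EGR1, and MYC. They were taken as a list of gene names by matching the Ensembl identifiers of the count table to GENCODE symbols, and 10 of 10 were found among 58288 identifiers and 10 of 10 were among the 13959 that passed the filter on low counts. RNA sequencing was carried out on HK2 cells, an immortalised human proximal tubule line of the kidney, which were grown in serum-containing medium and carried either a nontargeting shRNA or an shRNA against FLCN, the gene of folliculin that is mutated in Birt-Hogg-Dubé syndrome. The nontarget and the knockdown cells were each harvested short-term (under 30 passages, per the labels) and long-term (over 120 passages per the labels, while the study's methods give a smaller number), which gives 4 groups of 3 libraries. All 12 libraries came from stably transduced clones, and which clone gave each library was not stated in the labels, so the effects of clone and knockdown cannot be told apart.

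AP-1 is a dimer of proteins that hold a basic leucine zipper. JUN proteins pair with each other or with FOS proteins, whereas FOS proteins need a JUN partner to bind DNA, and ATF3 pairs with JUN proteins or with itself. Several of these genes are immediate early genes, which means that growth factors, stress or serum raise their transcripts within minutes through the ERK, JNK and p38 kinases, without new protein synthesis. FOSL1, FOSL2 and JUND are usually the more lasting members. MYC, which pairs with MAX to drive growth genes, is also induced by serum, and EGR1 is a classical target of serum response factor. No stimulus was part of the design, so the values are levels of growing cells.

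Promoter windows of 300 bases, 250 before and 50 after the transcription start, were read from RefSeq (GRCh38.p14) for 8 of the 10 genes, with a pair of windows for ATF3. The windows were searched on both strands for the AP-1 letters TGAGTCA, for the cAMP response element TGACGTCA, for its variant TGACATCA, for the E-box CACGTG and for the CArG box of serum response factor. None of these motifs overlapped another in the stretches below. JUN and ATF3 shared the same 8 letters, and no link between any of these letters and the transcript levels was tested. The stretches of 30 bases that held a match are shown with the match in capitals.
JUN: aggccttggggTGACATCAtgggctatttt
ATF3: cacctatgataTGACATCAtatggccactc
JUND: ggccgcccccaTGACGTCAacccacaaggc
FOSL2: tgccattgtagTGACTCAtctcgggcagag
EGR1, the upstream match: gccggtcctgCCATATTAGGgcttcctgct
EGR1, the downstream match: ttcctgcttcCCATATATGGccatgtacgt

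The JUN stretch lies at chr1:58784096-58784125 on the minus strand, with its match 67 bases before the start, and the ATF3 stretch at chr1:212565273-212565302 on the plus strand, 123 bases before the start of the upstream promoter. The JUND match lies 200 bases before the start (chr19:18281804-18281833, minus strand), and the FOSL2 match, the AP-1 letters on the other strand, just after the start (chr2:28392851-28392880, plus strand). The EGR1 matches lie 105 and 83 bases before the start (chr5:138465364-138465393 and chr5:138465386-138465415, plus strand). TGACATCA was held by 2.61% of all 35116 promoter windows, the AP-1 letters by 4.95%, TGACGTCA by 1.85%, the CArG box by 1.29% and the E-box by 7.26%. The windows of JUNB, FOS and FOSB held none of these letters. A match says only that the letters are there, and binding was not measured.

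FLCN, the targeted gene, had normalised counts (CPM, scaled by edgeR's TMM library sizes) of 12.7, 16.7 and 16.5 with the nontarget shRNA against 5.93, 6.57 and 5.65 with the FLCN shRNA in short-term cells, and of 9.89, 11.9 and 12.1 against 6.69, 6.30 and 7.95 in long-term cells. The log2 fold change was -1.33 (SE 0.18, adjusted p = 1.12e-04) after short-term and -0.70 (SE 0.18, adjusted p = 0.00611) after long-term knockdown, in the direction of the labels. Libraries held 5825779 to 8991051 counts. The third library of 3 groups stood apart: in all groups but short-term nontarget, pairs of replicates that held the third library differed with a chi-square of 6.32 to 11.9 per degree of freedom, against 2.07 to 4.93 for the other pairs of replicates. Across genes, the deviation of the third library from the other two of its group had a Spearman correlation with the GC content of the transcript of 0.499, 0.593 and 0.621 in those groups and -0.179 in short-term nontarget cells. JUND (69.7% GC, higher than 99.5% of tested genes) and JUNB (64.9%) are GC-rich, and ATF3 (46.7%) is not. JUND and FOSL2 were highest in the third library in 4 of 4 groups, as were 6.17% of all genes, and JUN, JUNB and FOSB in 3 of 4, as were 19.7% of all genes. Results are therefore also given without the third library of all groups, an alternative chosen after seeing the data, and the part of GC content in any result was not tested. Of the markers of other cells, NPHS1, UMOD, SLC12A1, KDR, PTPRC and CD3E were at 0 counts, and so were the proximal tubule genes LRP2, SLC22A6, SLC22A8 and HNF4A, whereas KRT8, KRT18 and PAX8 were among the 8 of 19 tubule markers that passed the filter. Levels of the other lists are summed over all genes of the list. Among podocyte markers 2 of 4 passed (PODXL and SYNPO), and the list summed to 66.0 to 127 CPM. Fibroblast and pericyte markers passed for 3 of 7 (COL1A1, PDGFRB and LUM). That list summed to 49.1 to 56.7 CPM in short-term and 24.6 to 36.7 CPM in long-term libraries. Distal tubule markers passed for 1 of 5 (CALB1), with a list sum of up to 5.94 CPM. Endothelial and immune markers summed to at most 2.19 and 1.31 CPM, with 0 passing. The part of other cell types in any result was not tested.

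Levels between genes were compared as CPM per kilobase of exon. MYC was the most abundant of the 10, at a mean of 86.3 CPM per kb over the 12 libraries (highest library 97.9). JUND (42.0), FOSL1 (35.8), JUNB (33.4), FOSL2 (28.5) and JUN (23.8) followed, with ranges that overlapped from each to the next. The highest of their libraries was 58.9 CPM per kb, for JUND, below the lowest of MYC. ATF3 (5.17), EGR1 (2.20), FOSB (1.13) and FOS (0.603) lay below the lowest JUN library of 13.8 CPM per kb. FOS, the founding member of its family, rested on 8 to 22 counts per library, FOSB on 20 to 87 and EGR1 on 16 to 81. Their values therefore carry a large counting error.

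The members were tested in 4 comparisons between pairs of groups: short-term and long-term knockdown against the nontarget cells of the same age, and long-term against short-term cells within nontarget and within knockdown cells. These comparisons share groups with each other, so their calls are not independent. After short-term knockdown, 0 of 10 members passed the test at an adjusted p below 0.05 (edgeR's quasi-likelihood test, Benjamini-Hochberg over all 13959 genes), where 10.3% of all genes did (5.62% higher and 4.71% lower). DESeq2 called 1, JUN. An unadjusted p below 0.05 was reached by 2 of 10, and the share of all genes at that threshold was not counted. The groups did not overlap for 3 of 10 members (30.2% of all genes). After long-term knockdown, FOSB rose and ATF3 fell, that is 2 of 10 (29.5% of all genes, 13.7% higher and 15.8% lower), and these 2 were also those without overlap (39.6%). With culture time, ATF3 rose and FOSL1 fell in nontarget cells (2 of 10, against 7.55% of all genes, 3.17% higher and 4.38% lower), and the groups did not overlap for 3 of 10 (25.7%). In knockdown cells FOSB and EGR1 rose and JUN, FOSL1 and ATF3 fell (5 of 10, against 26.6%, 11.5% higher and 15.2% lower), and the groups did not overlap for 6 of 10 (38.1%). The knockdown effect differed between long-term and short-term cells for 1 of 10 members, ATF3 (interaction term, 13.4% of all genes, 4.98% higher and 8.43% lower). For this term 4 of 10 had an unadjusted p below 0.05, and the share of all genes at that threshold was not counted. Over all 4 groups at once, 6 of 10 members differed (40.3% of all genes): JUN, JUNB, FOSB, FOSL1, ATF3 and EGR1. FOSL2 passed this test only with the replicate number as a block (adjusted p = 0.0218).

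**Figure D1:**
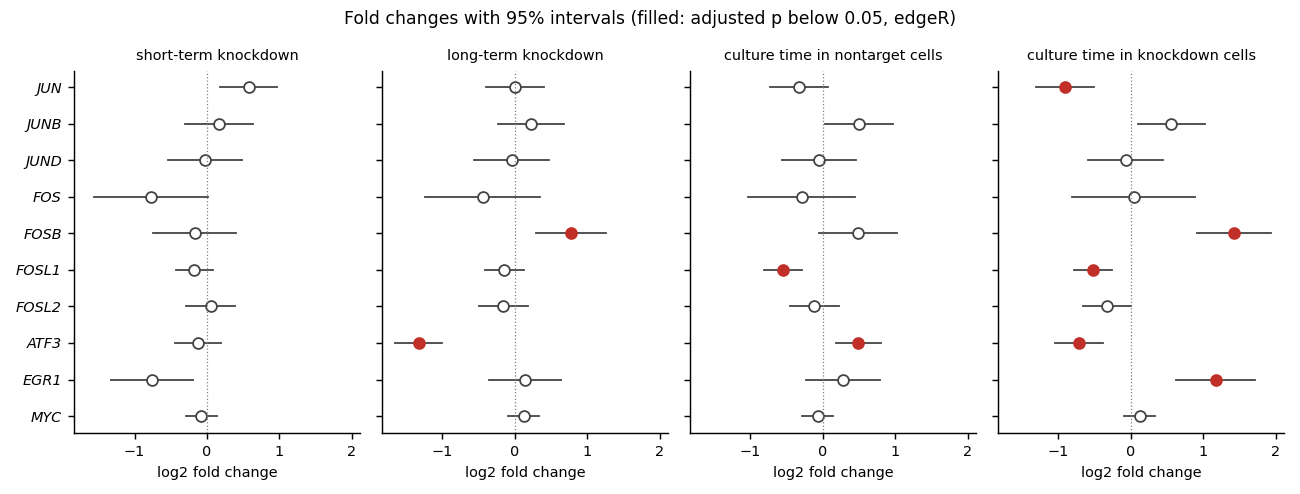
Log2 fold change (horizontal axis) of each gene in the 4 comparisons, with 95% intervals as lines and filled points where the adjusted p was below 0.05. ATF3 at -1.33 and FOSB at 0.77 are the filled points after long-term knockdown, and there are none after short-term knockdown.

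ATF3, a stress-induced factor that often represses its targets, had the largest fall among the members. In short-term cells it read 21.3, 21.7 and 21.5 CPM with the nontarget shRNA and 18.8, 19.1 and 21.5 CPM with the FLCN shRNA. In long-term cells it read 25.5, 32.4 and 32.5 CPM against 9.69, 13.8 and 12.9 CPM. Every long-term knockdown library therefore lay below, and every long-term nontarget library above, all short-term libraries. The long-term groups also differed without overlap in the share of mitochondrial counts (2.72 to 3.34% in nontarget and 3.79 to 5.60% in knockdown libraries) and of the 10 most abundant genes (5.25 to 5.52% and 6.38 to 7.57%). Short-term nontarget libraries, at 4.29 to 4.47% and 6.09 to 6.61%, also lay above the long-term nontarget ones. The part of these shares in the differences after long-term knockdown and with culture time in nontarget cells was not tested. After long-term knockdown ATF3 fell by 1.33 on the log2 scale (SE 0.15, adjusted p = 4.13e-06), which is 59.9% lower, and after short-term knockdown the difference was -0.12 (95% interval -0.44 to 0.20, adjusted p = 0.706). The difference between these effects was -1.21 (SE 0.21, adjusted p = 8.11e-04). With culture time ATF3 fell by 0.72 in knockdown cells (adjusted p = 0.00254), and it was 0.49 higher in nontarget cells (adjusted p = 0.0491). That last rise was lost without any 1 of 8 libraries, with adjusted p up to 0.177 (without the third long-term nontarget library), and it also missed the threshold in DESeq2. Without the third library of all groups the fall after long-term knockdown was -1.31 (adjusted p = 1.87e-06). In that comparison the median over the 40 tested genes nearest to ATF3 on chromosome 1 was -0.14.

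FOSB, a FOS family member whose induction by serum and stress is usually brief, moved the other way. With the nontarget shRNA it read 3.68, 3.79 and 5.80 CPM in short-term and 5.88, 5.25 and 7.23 CPM in long-term cells. With the FLCN shRNA it read 3.41, 2.92 and 5.65 CPM in short-term and 10.0, 11.6 and 9.98 CPM in long-term cells. The long-term knockdown libraries were the highest of the 12. After long-term knockdown FOSB rose by 0.77 on the log2 scale (interval 0.29 to 1.25, SE 0.23, adjusted p = 0.0156), or 1.72-fold, and against short-term knockdown cells by 1.42 (interval 0.91 to 1.94, adjusted p = 3.11e-04), or 2.64-fold. After short-term knockdown the difference was -0.17 (interval -0.75 to 0.41). The interaction was 0.94 (SE 0.36, adjusted p = 0.0929), so the effect at the 2 culture times was not shown to differ, although it passed without the third short-term knockdown library (1.24, adjusted p = 0.0230) and without the third libraries (1.18, adjusted p = 0.0317). The long-term rise missed the threshold without the first or second long-term nontarget library or the second long-term knockdown library (adjusted p = 0.0532, 0.0726 and 0.0638), and was 0.95 (adjusted p = 0.00184) without the third libraries.

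FOSL1, which encodes FRA-1 and is a target of ERK signalling in many epithelial tumours, fell with culture time whichever shRNA the cells carried. In nontarget cells it read 94.4, 89.6 and 70.1 CPM in short-term against 53.2, 61.7 and 58.4 CPM in long-term libraries. In knockdown cells it read 73.3, 69.3 and 83.0 CPM against 47.2, 56.2 and 53.3 CPM. The long-term libraries were all below all short-term libraries. The log2 fold change with culture time was -0.55 in nontarget cells (SE 0.12, adjusted p = 0.00920) and -0.53 in knockdown cells (SE 0.13, adjusted p = 0.00448). Knockdown itself gave -0.17 in short-term cells (interval -0.43 to 0.09, adjusted p = 0.445) and -0.15 in long-term cells (interval -0.41 to 0.12, adjusted p = 0.423). In nontarget cells the fall missed the threshold without the first or second short-term nontarget library (adjusted p = 0.0699 and 0.0513). Without the third libraries the short-term knockdown difference was -0.36 and passed (adjusted p = 0.0220).

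FOSL2, which encodes FRA-2, did not pass in any of the 4 comparisons, although its fall with culture time in knockdown cells (-0.33, adjusted p = 0.142) passed with the replicate number as a block (-0.31, adjusted p = 0.00944) and with no filter on low counts (-0.32, adjusted p = 0.0373). Its means were 216 ± 26.5 and 224 ± 59.8 CPM (SD, n = 3) for nontarget and knockdown cells at the short term, and 198 ± 26.1 and 178 ± 21.7 CPM at the long term. The widest spread, in short-term knockdown cells, came from 293 CPM in the third library against 189.4 and 189.7 CPM in the others. The log2 difference after knockdown was 0.05 (interval -0.28 to 0.39) in short-term and -0.16 (interval -0.49 to 0.18) in long-term cells. The 40 tested genes nearest to FOSL2 on chromosome 2 had a median of 0.31 and 0.58 in the same comparisons, and their difference from FOSL2 was not tested. FOS itself read 3.00, 2.73 and 2.04 CPM in short-term nontarget against 1.51, 1.60 and 1.41 CPM in short-term knockdown libraries, without overlap. At those counts the log2 difference of -0.77 did not pass (interval -1.56 to 0.01, adjusted p = 0.225). In long-term cells FOS read 1.47, 2.32 and 2.58 CPM against 0.922, 2.49 and 1.35 CPM, which overlap.

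Per exon length, FOSL1 and FOSL2 made up nearly all of the FOS family transcripts. FOSL1 held 58.4 ± 6.51% of the family total in nontarget and 55.5 ± 4.06% in knockdown cells at the short term, and 51.0 ± 3.37% and 50.4 ± 3.67% at the long term (mean ± SD, n = 3). FOSB held 1.05 ± 0.333% and 0.973 ± 0.185% at the short term, and 1.83 ± 0.228% in nontarget and 3.46 ± 0.371% in knockdown cells at the long term, and its lowest share in long-term knockdown cells (3.08%) lay above its highest in long-term nontarget cells (2.00%). The rise of FOSB was therefore a rise of a minor transcript. Shares are taken within a library, and they are given as a description without a test.

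JUN, the partner with the strongest transactivation among the JUN proteins, was highest in short-term knockdown cells. In short-term cells it read 86.7, 84.4 and 76.3 CPM with the nontarget shRNA and 106, 106 and 159 CPM with the FLCN shRNA, without overlap. In long-term cells it read 57.6, 63.0 and 76.0 CPM against 49.0, 64.0 and 84.8 CPM, which overlap. The short-term difference was 0.58 on the log2 scale (interval 0.18 to 0.97, SE 0.19) with an adjusted p of 0.0602. It passed without the second short-term knockdown library (0.68, adjusted p = 0.0428) and without the first or the third long-term knockdown library (adjusted p = 0.0302 and 0.0188), while without the third libraries it shrank to 0.30 (adjusted p = 0.0611). With culture time JUN fell by 0.91 in knockdown cells (interval -1.31 to -0.51, adjusted p = 0.00186), or 46.6% lower, and the same fall of 0.91 was seen without the third libraries. In nontarget cells the difference with time was -0.33 (interval -0.73 to 0.07, adjusted p = 0.375), which became -0.51 (adjusted p = 0.00323) without the third libraries. The interaction was -0.58 (adjusted p = 0.176) and passed without the third long-term knockdown library (-0.80, adjusted p = 0.0269).

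JUNB, which binds like JUN but activates fewer targets and restrains growth in many cells, read 43.0, 52.9 and 44.8 CPM in short-term and 49.3, 58.4 and 90.4 CPM in long-term cells with the nontarget shRNA. With the FLCN shRNA it read 44.8, 49.7 and 63.4 CPM in short-term and 65.8, 65.0 and 102 CPM in long-term cells. Long-term knockdown libraries all lay above short-term knockdown libraries, by 0.56 on the log2 scale (interval 0.10 to 1.02, adjusted p = 0.0708). That difference passed without the third short-term knockdown library (0.71, adjusted p = 0.0276), without the third long-term nontarget library (0.54, adjusted p = 0.0264) and without the third libraries (0.47, adjusted p = 0.00362), and with the replicate number as a block (0.55, adjusted p = 0.00260). The test over the 4 groups (adjusted p = 0.0487) was lost without any 1 of 8 libraries. Knockdown gave 0.16 (interval -0.31 to 0.63) in short-term and 0.22 (interval -0.23 to 0.68) in long-term cells. JUNB shares 259 exon bases with HOOK2 on the opposite strand, which had 1332 counts against 5068 of JUNB, and whether counting used strand was not given in the sources used here. JUND, the most steady JUN gene in most tissues, had means of 80.5 ± 4.03 and 79.4 ± 21.1 CPM in nontarget and knockdown cells at the short term and of 77.5 ± 21.2 and 75.7 ± 29.6 CPM at the long term. Its 4 group levels did not pass (adjusted p = 0.986), but did without the third libraries (adjusted p = 0.0141). No comparison between a pair of groups passed for JUND without the third libraries (adjusted p = 0.104 to 0.312).

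The make-up of the JUN family varied less between replicates than its sum did in all groups but short-term nontarget, where the shares varied more. At the short term the summed level was 92.3 ± 3.90 CPM per kb in nontarget and 106 ± 25.2 in knockdown cells, and at the long term 96.4 ± 25.9 and 102 ± 32.1. JUN held 25.3 ± 2.03% of it in nontarget and 32.7 ± 1.18% in knockdown cells at the short term, and 19.6 ± 2.22% and 18.5 ± 1.94% at the long term. The 3 short-term knockdown libraries (31.4 to 33.6%) lay above all others, the highest of which was 27.5%, so the third library that was highest for JUN in CPM did not stand out in its share. JUNB held 27.9 ± 1.93% and 27.4 ± 1.53% at the short term, and 37.3 ± 2.06% and 42.2 ± 2.84% at the long term, in the same order. All long-term libraries (at least 35.4%) were above all short-term ones (at most 30.1%), and long-term knockdown libraries (at least 40.3%) were above long-term nontarget ones (at most 39.5%). JUND held the remainder, 46.8 ± 2.24% and 39.9 ± 1.15% at the short term and 43.1 ± 0.381% and 39.3 ± 2.78% at the long term. These shares are a description without a test.

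EGR1, an immediate early zinc-finger factor whose promoter window held the pair of CArG boxes shown above, was lowest in short-term knockdown cells. In short-term cells it read 6.41, 7.88 and 5.64 CPM with the nontarget shRNA against 2.02, 4.96 and 5.12 CPM with the FLCN shRNA. In long-term cells it read 8.16, 7.73 and 8.26 CPM against 9.34, 9.08 and 8.12 CPM. The low group lay below all other groups, with the first short-term knockdown library the lowest at 16 counts. After short-term knockdown the difference was -0.76 on the log2 scale (interval -1.32 to -0.19, adjusted p = 0.0888), and it passed without the third short-term knockdown library (-0.96, adjusted p = 0.0498) and without the third libraries (-1.06, adjusted p = 0.0198). With culture time EGR1 rose by 1.17 in knockdown cells (interval 0.63 to 1.72, adjusted p = 0.00262), or 2.19-fold, against 0.28 (interval -0.23 to 0.79) in nontarget cells. The interaction was 0.90 (adjusted p = 0.111), and 1.28 (adjusted p = 0.0265) without the third libraries.

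MYC passed in no comparison. Its means were 263 ± 17.5 CPM in nontarget and 250.05 ± 26.2 CPM in knockdown cells at the short term, and 250.2 ± 14.1 and 272 ± 21.1 CPM at the long term, over a range of 234 to 294 CPM. The log2 difference was -0.08 (interval -0.29 to 0.14) after short-term and 0.12 (interval -0.09 to 0.33) after long-term knockdown. The intervals therefore hold a fall of MYC of up to 0.29 after short-term and a rise of up to 0.33 after long-term knockdown.

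Genes around these factors were described by 7 lists of 135 genes in all. Their counts are to be read against all genes tested, of which 5.62% rose and 4.71% fell after short-term knockdown, 13.7% and 15.8% after long-term knockdown, and 11.5% and 15.2% with culture time in knockdown cells. Of 17 tested bZIP partners other than the members, 1 rose after short-term knockdown (ATF2, 0.52, adjusted p = 0.0211), and 0 rose (1 with the replicate block, CEBPD) and 4 fell after long-term knockdown. The short-term count became 0 at a fold of at least 1.5 or without the first or the third short-term nontarget or the first or the second short-term knockdown library, and 1 fell without the third short-term knockdown library. Without the third libraries 1 fell after short-term and 1 rose after long-term knockdown. Those that fell were JDP2, a repressor of AP-1, ATF1, and the stress-related factors ATF5 (59.7 to 30.0 CPM, -0.99, adjusted p = 1.96e-05) and MAFF (16.0 to 8.46 CPM, -0.94, adjusted p = 0.00138). The median of the list was -0.12 in long-term and 0.08 in short-term knockdown, against 0.00 for all genes in both. JDP2 was 0.33 higher after short-term knockdown without passing (adjusted p = 0.128), and its effects differed between the culture times by -1.19 (adjusted p = 3.26e-04). With culture time in knockdown cells MAF (0.88, adjusted p = 1.71e-04) and CREM (0.53, adjusted p = 0.0182) rose, and JDP2 fell by 1.60 (adjusted p = 1.63e-07).

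Of 19 tested immediate early genes that are not members, 3 rose and 2 fell after short-term knockdown and 4 rose and 9 fell after long-term knockdown, with list medians of 0.06 and -0.31 (all genes, 5.62% and 4.71%, then 13.7% and 15.8%). Without the third libraries 6 rose after short-term knockdown, at a fold of at least 1.5 only 1 fell there, and at a mean of at least 10 CPM 2 rose after long-term knockdown. SGK1, a kinase induced by serum, rose in both (54.2 to 105 CPM, 0.96, adjusted p = 4.24e-05, and 80.1 to 155 CPM, 0.95, adjusted p = 6.00e-06). CCN2, a matrix-associated growth factor, fell in both (417 to 226 CPM, -0.89, adjusted p = 3.99e-04, and 341 to 106 CPM, -1.69, adjusted p = 1.09e-07). TRIB1 rose (0.48, adjusted p = 0.0263) and IER3 fell (-0.57, adjusted p = 0.00283) after short-term knockdown. After long-term knockdown HES1 rose (0.85, adjusted p = 9.20e-04), and PPP1R15A, which encodes the GADD34 subunit that restores translation after stress, fell from 42.5 to 19.3 CPM (-1.14, adjusted p = 1.20e-05). In knockdown cells over time, 3 of these genes rose, among them IER2 (0.78, adjusted p = 0.00778), and 9 fell (all genes, 11.5% and 15.2%).

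The list of feedback inhibitors had 14 tested genes, which were DUSP phosphatases and SPRY and SPRED proteins of ERK and JNK signalling and the EGR corepressors NAB1 and NAB2. NAB1 and NAB2 did not pass in any of the 4 comparisons. After short-term knockdown 0 of 14 passed, although 1 was higher and 1 lower with only the 2 groups compared, and 1 was lower without the third short-term nontarget library, the third long-term knockdown library or the third libraries. After long-term knockdown 0 rose (1 with the block, DUSP16, and 1 without the second long-term nontarget library) and 7 fell (15.8% of all genes; median -0.57; 4 fell at a mean of at least 10 CPM), among them DUSP6 (11.9 to 6.11 CPM, -0.96, adjusted p = 0.00114) and DUSP5 (40.1 to 22.6 CPM, -0.83, adjusted p = 1.32e-04), which remove phosphate from ERK. In nontarget cells 2 of 14 fell with culture time, SPRY2 (-0.67, adjusted p = 0.00537) and SPRY4 (4.38% of all genes; 1 at a mean of at least 10 CPM or without the second short-term or the first long-term nontarget library), and in knockdown cells 8 of 14 fell (15.2% of all genes), with DUSP6 at -1.74 (adjusted p = 2.14e-06). Of 21 kinases and SRF or TCF factors upstream of the members, 1 rose after short-term knockdown, MAPK9, which encodes JNK2 (48.3 to 72.7 CPM, 0.59, adjusted p = 9.31e-04). After long-term knockdown 2 rose (5 with the block or without the third libraries, 4 without the third long-term nontarget library, and 1 at a mean of at least 10 CPM or a fold of at least 1.5), with MAPK9 at 0.45 (adjusted p = 0.00227), and 6 fell, among them SRF itself (99.4 to 66.8 CPM, -0.58, adjusted p = 0.00794) and MAP2K3 (-0.54, adjusted p = 0.0248). The count of falls was 3 without the first long-term knockdown library and 0 at a fold of at least 1.5.

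Of 18 tested AP-1 target genes, 3 rose and 4 fell after short-term knockdown, and 4 rose and 9 fell after long-term knockdown (medians -0.18 and -0.39; all genes, 5.62% and 4.71%, then 13.7% and 15.8%). The short-term counts moved with single libraries. Without the first or the second short-term nontarget library 1 rose and 2 fell, without the third short-term nontarget or the first short-term knockdown library 2 fell, and without the second short-term knockdown library 1 fell. At a fold of at least 1.5, 2 fell, and without the third libraries 5 rose and 7 fell. In short-term cells IL6 (0.73, adjusted p = 0.0150) and the cyclin gene CCND1 (117 to 179 CPM, 0.61, adjusted p = 6.18e-04) rose, and the urokinase genes PLAUR (-0.96, adjusted p = 0.00249) and PLAU (-0.55, adjusted p = 0.0125) fell. In long-term cells the chemokine CXCL8 (24.4 to 94.4 CPM, 3.88-fold by the group means, adjusted p = 1.14e-04) and TGFB1 (129 to 250.1 CPM, 0.95, adjusted p = 0.00236) rose. CCND1 (145 to 3.48 CPM, -5.38, adjusted p = 4.77e-14) fell. With culture time in nontarget cells CXCL8 had itself fallen (76.3 to 24.4 CPM, -1.64, adjusted p = 0.00238), and in short-term knockdown cells it read 64.4 CPM. TGFB1, CCND1, PLAU, IL6, CCN2, IER2, IER3, DUSP6, ATF2, ATF5, CREM and JDP2 share exon bases with a gene on the opposite strand.

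Of 13 tested partners and antagonists of MYC, 1 rose after short-term knockdown, the MAX-binding repressor MXD3 (0.53, adjusted p = 0.00385), and 3 rose and 2 fell after long-term knockdown. The short-term count was 2 without the first short-term knockdown library and 0 at a fold of at least 1.5. The falls were 1 without the third long-term nontarget or the first or the second long-term knockdown library, and 0 at that fold. MXD3 (0.65, adjusted p = 1.91e-04) and FBXW7, whose product marks MYC for degradation (0.75, adjusted p = 0.00318), rose, and MLXIP fell (-0.36, adjusted p = 0.00812). MXD3 overlaps PRELID1 and RAB24, and NOP16, MAX and FBXW7 share exon bases with genes on the opposite strand (NOP16 with HIGD2A and ARL10), so their counts are uncertain. MAX, the partner of MYC, fell with culture time in both cell types, by 0.61 in nontarget (adjusted p = 0.00213) and by 0.69 in knockdown cells (adjusted p = 1.84e-04). Of 18 tested MYC target genes, 3 rose and 0 fell after short-term knockdown and 5 rose and 0 fell (1 with the block, NCL, and 3 without the third libraries) after long-term knockdown. Without the third libraries 6 rose and 1 fell after short-term knockdown, and at a fold of at least 1.5 the rises were 1 and 3. The nucleolar genes NPM1 (0.63, adjusted p = 0.00782, and 0.72, adjusted p = 8.70e-04) and NOP16 (0.47, adjusted p = 0.00671, and 0.63, adjusted p = 1.56e-04) were among them in both, while the list medians were 0.13 and 0.01.

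The genes whose log2 CPM followed a member most closely over the 12 libraries were named, for the 6 members that differed over the 4 groups, by Pearson's r among genes averaging 10 CPM or more, as a description that includes the differences between groups and between libraries. ATF3 was most like TINAGL1 (0.97), KIAA0513 (0.97) and ARHGAP40 (0.96). FOSB was most like TBC1D4 (0.97), LMO4 (0.95) and SLC43A2 (0.95), and FOSL1 like TUBB2B (0.93), ATP6V0E2 (0.91) and QDPR (0.91). JUN was most like VAC14 (0.95), MVP (0.95) and SHARPIN (0.94), and JUNB like NXPH4 (0.96), BSG (0.95) and MKNK2 (0.95). EGR1 was most like AL354740.1 (0.89), BLMH (0.88) and CRELD1 (0.87).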

How the data were processed

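RNA was extracted with the RNeasy Plus Mini kit and libraries were made from polyA RNA with the TruSeq RNA v2 kit. The authors used fastp for trimming and STAR in 2-pass mode for mapping to GRCh38, and deposited raw counts per gene from featureCounts for 12 libraries. The deposited normalised values are a score, counts divided by a DESeq2 size factor and rounded, and were used only for a check. Tool versions, the annotation release and the strand setting were not given in the sources used here. Deposited per-library counts and the series table differed in 0 values.

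Gene identifiers were matched without version to GENCODE release 29 (308 of 58288 unmatched). The raw counts were tested with edgeR 4.0.16 in R 4.3.3: TMM factors, filterByExpr by group, 1 model of all 12 libraries with a term per group, robust quasi-likelihood F-tests and Benjamini-Hochberg adjustment over 13959 genes. The biological coefficient of variation was 12.0%. A run on simulated counts was also made, and its outcome is not given here. CPM values use TMM library sizes. DESeq2 1.42.0, other scaling and filters, a replicate block and leaving out libraries were alternatives. Whether replicates came from separate cultures beyond the label "biol rep" was not stated, so p-values measure the spread between these libraries. Same-numbered libraries deviated together (3 of 3 correlations over 0.1) between long-term nontarget and knockdown (0.123 to 0.458) and between short-term and long-term knockdown (0.223 to 0.455), as seen in the data, not stated in the labels. In these comparisons the blocked value is given where it changes a call.

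Always named were the members and FLCN. In each comparison, and for each list, the 2 called genes with the largest rise and the 2 with the largest fall were eligible when groups did not overlap and the mean was at least 50 counts, and the 3 genes most like each member that differed were named. A few genes that this rule or the marker lists would name are not reported here. Members and lists were chosen with earlier results of these data known.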

Additional observations from a re-analysis of the deposited data

Results flagged for a closer look

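The effect of FLCN knockdown differed between long-term and short-term cells by edgeR's interaction term (adjusted p below 0.05) for the genes given here, as log2 differences of the long-term effect minus the short-term effect. Among the members it was ATF3 at -1.21. Over all genes this term was higher for 4.98% and lower for 8.43%. Among 17 tested bZIP partners it was higher for 1 and lower for 3, among them JDP2 at -1.19, ATF5 at -0.90 and MAF at 0.66. Among 19 other immediate early genes it was higher for 1 and lower for 8, among them PPP1R15A at -1.20, IER5 at -1.01 and HES1 at 0.79. Among 21 kinases and factors it was higher for 1 and lower for 2, MAPK8, which encodes JNK1, at -0.80 and MAPK13 at -0.47, and among 14 feedback inhibitors it was higher for 0 and lower for 5, among them DUSP6 at -1.44 and DUSP5 at -0.93. Among 18 AP-1 target genes it was higher for 4 and lower for 6, among them CCND1 at -5.99, CXCL8 at 2.20 and TGFB1 at 1.23, and among 13 MYC partners it was higher for 0 and lower for 3, among them MXD4 at -0.91 and MLXIP at -0.53. By the interaction term, MAF (adjusted p = 0.0340), HES1 (adjusted p = 0.0415) and MAPK13 (adjusted p = 0.0440) lay near the threshold. Counts of called genes over the lists moved when 1 library was left out, as given below, so the counts of each list are not firm. No cause of these differences was tested.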

How the results depend on the processing

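Of 925 values of the 50 member results (10 members in 5 comparisons) under refits with other settings, 881 kept their side of the threshold (48 of them with the other sign, called in neither fit), 16 lost and 28 gained a call, and 0 called values changed sign. Of 10 called member results, 7 kept their call in every refit that tested them, and the exceptions were FOSB after long-term knockdown and FOSL1 and ATF3 with time in nontarget cells. At a fold of at least 1.5, FOSL1 with time in knockdown cells also lost its call, which left 4 member calls there in place of 5. FOS, FOSB and EGR1 were not tested at a mean of at least 10 CPM, and their low counts limit what can be seen of them. Except where a value or the loss of tested genes shows it, the cause was not tested.

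After short-term knockdown, 1 member was higher, in place of 0, with no filter on low counts, with the replicate block, with only the 2 groups compared and in DESeq2, and 1 was lower with the block and 2 without the third libraries. At a mean of at least 10 CPM, 0 members were higher after long-term knockdown or with time in either cell type, and 3 differed over the 4 groups, in place of 6. With time in nontarget cells, 2 members were higher, in place of 1, with no filter and with the block, and 0 in DESeq2, without the third libraries and at a fold of at least 1.5, while 2 were lower without the third libraries and 0 at that fold. For the interaction, 1 member was higher with the block and 2 without the third libraries, in place of 0, and 2 were lower with no filter and with the block, in place of 1. Over the 7 lists, short-term calls were 18, and 28 with the block, 32 without the third libraries and 9 at a fold of at least 1.5, and calls with time in nontarget cells were 15, 26, 23 and 9. Over all genes, short-term calls were 1441, and 2358 with the block and 938 at a fold of at least 1.5. Calls with time in nontarget cells were 1054, and 1786 with the block and 678 at a mean of at least 10 CPM. At that fold, long-term calls were 2657 in place of 4119 and calls with time in knockdown cells 2369 in place of 3716, and interaction calls were 2881 with the block in place of 1872.

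Leaving out 1 library at a time gave 0 to 1 members higher and 0 to 1 lower after short-term knockdown, 0 to 1 higher after long-term knockdown, 0 to 1 higher and 0 to 1 lower with time in nontarget cells, and 0 to 1 higher and 1 to 2 lower for the interaction. List calls ranged from 11 (without the first short-term nontarget library) to 20 after short-term knockdown, from 8 (without the first short-term or the first long-term nontarget library) to 18 with time in nontarget cells, and from 22 (without the first long-term knockdown library) to 40 for the interaction. Over all genes, short-term calls ranged from 873 to 1666 and were 873 and 900 without the first and the second short-term nontarget library. Calls with time in nontarget cells ranged from 579 to 1269, and were 579, 642 and 698 without the first and the second short-term and the second long-term nontarget library.

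In the comparisons where the replicate numbers did not pair the libraries (short-term knockdown, and time in nontarget cells), and for the interaction, the block is given as values only. Over all groups, 18 same-number pairs correlated at -0.101 to 0.467 (median 0.117) and 36 other pairs at -0.397 to 0.231 (median -0.0358), and a library matched its own number best in 22 of 36 tries, as a hint from the data. The replicate block gave 17 member calls in place of 10, with 0 lost and 7 gained: JUN, EGR1 (short-term knockdown), JUNB (time in both cell types), FOSL2 (time in knockdown cells), and JUN and FOSB (interaction). In the 2 paired comparisons it changed no other member call.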

Other observations

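A few genes outside the rule for named genes were looked at after their values were seen. EGR2, the close relative of EGR1, had 11 counts summed over 3 libraries in nontarget against 51 in knockdown cells at the short term. At the long term it had 5 against 89. The log2 difference was 2.18 (SE 0.54) after short-term and 4.10 (SE 0.57) after long-term knockdown, at counts too low for a firm size. At nontarget means of 0.53 and 0.24 CPM, EGR2 passed the filter on low counts only through its knockdown groups. P-values are left out for EGR2 and MMP13, as both were picked after their values were seen. MMP13, a classical AP-1 target, had 20 counts in nontarget and 137 in knockdown cells at the long term (log2 difference 2.75, SE 0.42). In the other groups its means were 0.655 to 0.997 CPM, so it passed the filter on low counts only through long-term knockdown cells. MMP1 and MMP9 of the same list were not called after long-term knockdown.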
